A study of Mus musculus with 2 samples.

Results

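The genes described here are 10 genes of the transforming growth factor beta (TGF-β) system: the ligands Tgfb1, Tgfb2 and Tgfb3, the receptors Tgfbr1, Tgfbr2 and Tgfbr3, the latent TGF-β binding proteins Ltbp1, Ltbp2 and Ltbp4, and the induced matrix protein Tgfbi. They were found by symbol among the gene rows shared by both libraries, which held 10 of 10 members among 32285 genes. TGF-β leaves the cell bound to its own propeptide, and latent TGF-β binding proteins (LTBPs) anchor that inactive complex to fibrillin and elastin fibres until integrins or proteases release it. The freed ligand binds TGFBR2, which recruits TGFBR1, and TGFBR1 phosphorylates SMAD2 and SMAD3. In lung the pathway is known for branching, alveolar and elastic fibre development and for restraint of lymphocytes, and TGF-β also acts on group 2 innate lymphoid cells (ILC2s), the tissue lymphocytes that secrete type 2 cytokines.

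The libraries came from fetal lungs of wild type C57BL/6J mice at gestation day 18. The OVA group was the litter of a dam sensitized with 100 µg ovalbumin in alum and then given 500 µg intranasally at each challenge between gestation days 4 and 17, and the PBS group came from a dam given alum and PBS alone. Dams were 6 to 8 weeks old at sensitization, 9 (PBS) and 8 (OVA) fetuses from 1 dam each were pooled, and cells sorted as ILC2s (CD45+ Lin- ST2+), as leukocytes (CD45+) or as epithelium (EpCAM+) went together into 1 Multiome library per group, which reads RNA and accessible chromatin from the same nucleus. With 1 library and 1 dam in each group there was no replicate, so no p-value could be given, every interval below covers counting error only, and dam, litter, pooling and library cannot be told apart from the exposure.

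After filtering, 4279 PBS and 4996 OVA nuclei remained, with a median of 649 and 1212.5 nuclear-gene UMIs (unique RNA molecules), and 45.2% and 29.2% of all gene UMIs were mitochondrial. Nuclei were assigned to types by lists of marker genes, and the 9 types with at least 50 nuclei in each library took 2451 PBS and 3236 OVA nuclei, among them 354 and 515 ILC2, 219 and 376 macrophage, 99 and 183 monocyte, 67 and 104 mast cell or basophil, 522 and 366 AT2, 234 and 315 AT1, 658 and 1003 fibroblast, 197 and 233 myofibroblast or smooth muscle and 101 and 141 pericyte nuclei. The 4 immune types held Ptprc (CD45) at 666 to 1059 CPM (UMIs of a gene per 1000000 nuclear-gene UMIs of a type) against at most 75.7 elsewhere, and both alveolar types held Epcam at 112 to 156 against at most 37.3. Fibroblast, myofibroblast or smooth muscle and pericyte nuclei were present although no sort selects them. In the mast cell or basophil gate the Fc receptor gene Fcer1a had no UMI and Ms4a2 stood at 85.5 and 124 CPM, while the mast cell protease gene Cpa3 stood at 3525 and 3483. In unsupervised clustering most ILC2 nuclei of both libraries lay in cluster 2 (91.5% and 92.0%), but the macrophage nuclei lay mainly in cluster 0 in PBS (43.4%) and in cluster 1 in OVA (58.8%), of whose gated nuclei 61.9% were macrophages, monocytes in cluster 0 (32.3%) and cluster 11 (42.6%), AT1 in cluster 9 (63.2%) and cluster 8 (60.3%), and fibroblasts in cluster 4 (39.8%) and cluster 5 (56.9%). Between libraries, 54 barcodes were shared, 30 of them among retained nuclei.

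Promoter sequences are shown for 3 genes described at length below: Ltbp1, whose pair of annotated starts differed in accessibility, Tgfb2, the ligand highest in AT1, and Tgfbi. They are from RefSeq on GRCm38.p6, 5′ to 3′ on the strand of the gene, from 250 bases before the start to 50 after it. Capitals mark matches to CAGAC, the core bound by SMAD3 and SMAD4, or to the GATA motif AGATAA, on either strand.
Ltbp1, first start, chr17:75005279-75005578, plus strand: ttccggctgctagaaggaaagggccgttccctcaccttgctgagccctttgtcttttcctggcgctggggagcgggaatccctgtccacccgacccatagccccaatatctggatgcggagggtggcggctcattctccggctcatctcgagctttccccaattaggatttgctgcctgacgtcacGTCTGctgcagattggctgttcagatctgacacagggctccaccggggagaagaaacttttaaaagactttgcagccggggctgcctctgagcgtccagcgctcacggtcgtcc
Ltbp1, second start, chr17:75178531-75178830, plus strand: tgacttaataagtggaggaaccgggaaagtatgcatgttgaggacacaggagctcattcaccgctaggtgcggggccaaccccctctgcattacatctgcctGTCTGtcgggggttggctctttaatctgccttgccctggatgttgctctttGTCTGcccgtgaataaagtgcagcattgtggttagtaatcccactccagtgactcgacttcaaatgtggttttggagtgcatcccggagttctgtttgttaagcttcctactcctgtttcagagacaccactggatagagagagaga
Tgfb2, chr1:186705940-186706239, minus strand: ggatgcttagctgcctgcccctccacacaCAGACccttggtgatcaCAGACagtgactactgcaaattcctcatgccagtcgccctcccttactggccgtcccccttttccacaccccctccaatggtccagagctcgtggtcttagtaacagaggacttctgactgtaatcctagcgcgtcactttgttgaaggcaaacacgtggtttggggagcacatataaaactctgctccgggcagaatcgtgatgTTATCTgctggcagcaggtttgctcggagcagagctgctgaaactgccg
Tgfbi, chr13:56609336-56609635, plus strand: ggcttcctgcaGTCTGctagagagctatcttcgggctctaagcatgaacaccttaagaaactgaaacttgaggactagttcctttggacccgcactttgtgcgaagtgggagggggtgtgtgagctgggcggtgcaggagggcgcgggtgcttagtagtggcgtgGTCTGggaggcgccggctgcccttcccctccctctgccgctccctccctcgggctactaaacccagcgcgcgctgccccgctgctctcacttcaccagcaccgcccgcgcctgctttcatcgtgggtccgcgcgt
The windows of both Ltbp1 starts differed in base composition: 17 CG dinucleotides and 58.7% G or C at the first start against 7 and 50% at the second. A CAGAC match occurred once in the first Ltbp1 window and in 2 places in each of the other 3 windows shown, a motif present in 49.6% of 32851 promoter windows. The GATA motif matched once, in Tgfb2, against 11.2% of windows. No window of any member held the AP-1 motif TGANTCA, which 7.81% of windows held. Windows were found for 8 of 10 members, and none was found for Tgfb3 and Tgfbr3.

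Of the ligands, Tgfb1 was highest in ILC2, macrophage and monocyte nuclei, Tgfb2 was highest in AT1 nuclei and Tgfb3 was a low stromal transcript. RNA levels are in CPM, as defined above. They are compared between types and not between genes, since nuclear RNA holds introns and long genes yield more UMIs.

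Tgfb1, the ligand best known from leukocytes (chr7:25687002-25705077), stood in PBS at 191 in ILC2, 200 in macrophage and 155 in monocyte nuclei. In OVA it stood at 214, 183 and 183. Mast cell or basophil nuclei held 107 and 124 and pericytes 108 and 81.9, the PBS pericyte value from 10 UMIs of which 6 lay in 1 nucleus. Fibroblast nuclei held 20.1 and 39.1, AT2 33.4 and 22.0 and AT1 33.9 and 30.4. ILC2, macrophage and monocyte nuclei did not differ beyond counting error in either library, whereas ILC2 exceeded fibroblasts by 3.25 log2 units (95% interval 2.34 to 4.24) in PBS and 2.45 (2.03 to 2.88) in OVA. ILC2 was not separated from mast cells in either library. It was not separated from pericytes in PBS (0.82, -0.20 to 1.98) and exceeded them in OVA (1.39, 0.68 to 2.17). No step between neighbours in the order of types was larger than its interval, in PBS or in OVA, so only types far apart in the order were separated. The peak over the Tgfb1 start (chr7:25686553-25687434) had 189 transposition counts in PBS ILC2 nuclei, 75.0 CPM (here of all counts in shared peaks of the type), and 313 counts in OVA, 78.1 CPM. Elsewhere the same peak ranged from 30.6 to 64.5 CPM, below ILC2 in every type and library. Over the gene and the 10 kb before it, ILC2 nuclei were 0.88 log2 units (0.76 to 0.99) above the other types together in PBS and 0.73 (0.64 to 0.83) in OVA. Both ends of a fragment are counted in these files, and 91.2% of nonzero values per nucleus and peak were even, so the intervals of accessibility, here and for the other genes, are too narrow.

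Tgfb2, a ligand known from epithelial and mesenchymal development (chr1:186622792-186705989), was at 315 and 326 CPM in PBS and OVA AT1 nuclei, the flat gas exchange cells of the alveolus. AT2 nuclei, which secrete surfactant, held 146 and 111, and fibroblasts 138 and 132. AT1 stood above the next type by 1.06 log2 units (lower limit 0.24) in PBS, where that type was the pericyte, and by 1.31 (1.03) in OVA, where it was the fibroblast. The remaining neighbours in the order did not differ beyond counting error. In ILC2, macrophage and monocyte nuclei 2 to 10 UMIs were counted per library, 8.01 to 19.4 CPM. No peak lay over its RefSeq start in either library, and over the gene and the 10 kb before it the leukocytes had 7.61 to 18.2 CPM of transposition counts against 30.6 to 58.0 in the epithelial and stromal types.

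Tgfb3, known from palate and lung mesenchyme development (chr12:86056745-86079041), was the sparsest member. Pericyte nuclei held 9 UMIs in PBS and 13 in OVA, 97.4 and 56.0 CPM, and myofibroblast or smooth muscle nuclei 12 and 21, 61.0 and 52.9 CPM. Monocyte nuclei held none in either library, which allows up to 29.1 and 12.8 CPM. Pericytes and myofibroblasts therefore had the highest levels in both libraries without differing from each other beyond counting error. In OVA myofibroblast or smooth muscle nuclei exceeded the next type, AT2, at 18.9. In PBS they were not separated from the next type, the fibroblast, at 44.6 (0.45 log2 units, -0.65 to 1.45). The peak over the Tgfb3 start was likewise higher in stroma, with 48.6 to 67.5 CPM in the 3 stromal types and 12.1 to 37.4 in the other types.

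**Figure D1:**
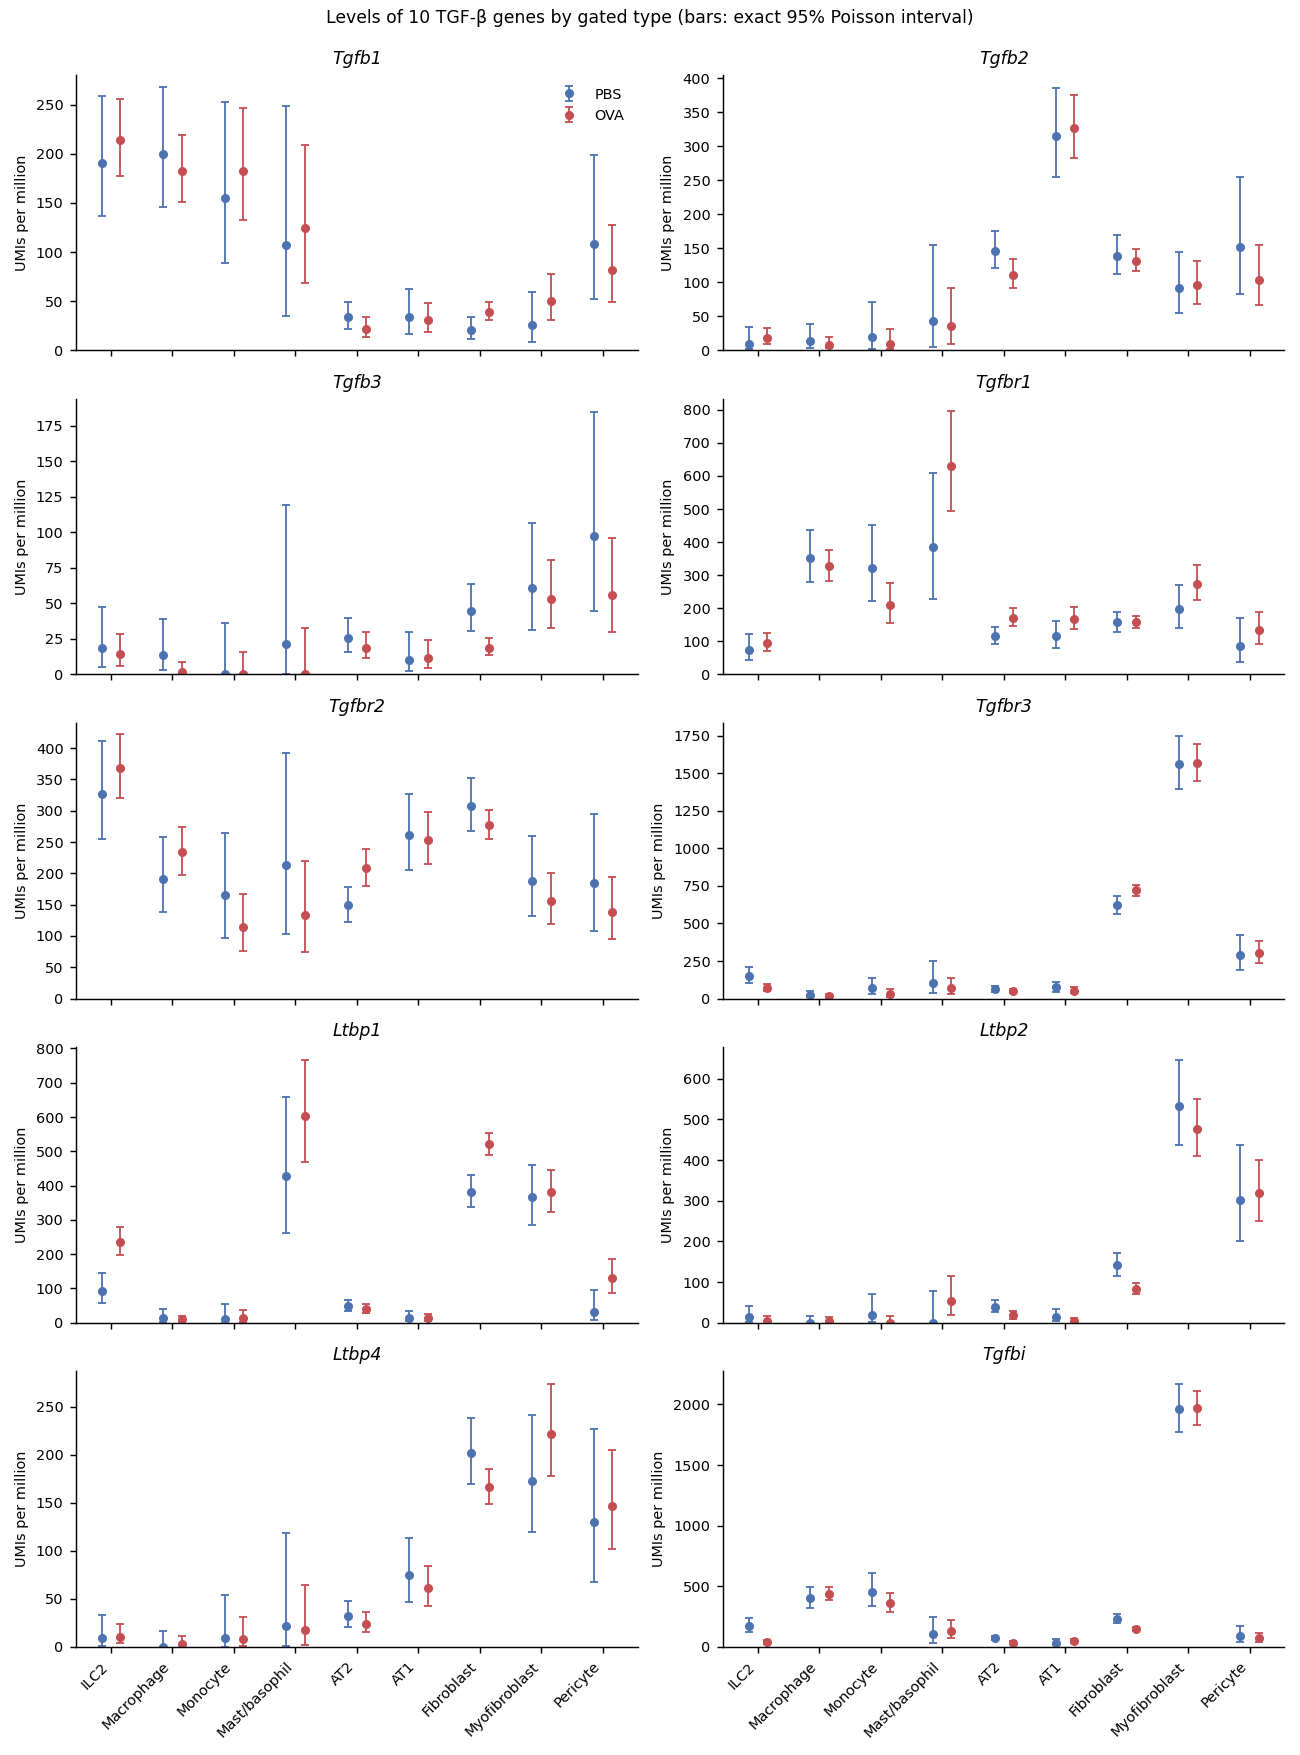
CPM, UMIs of a gene per 1000000 nuclear-gene UMIs, of the 10 genes (y axis, linear, own scale per gene) in 9 gated types (x axis) in the PBS (blue) and OVA (red) libraries, with points for the level in 1 library and bars for the exact 95% Poisson interval. Tgfb2 peaks in AT1, Tgfbr3, Ltbp2 and Tgfbi in myofibroblast or smooth muscle nuclei, and Ltbp1 is high in mast cells, fibroblasts and myofibroblasts with ILC2 at 93.2 and 236 between these and the remaining types.

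Among the receptors, ILC2 nuclei stood at the top for Tgfbr2 and at the bottom for Tgfbr1. Tgfbr2, the type II kinase that binds the ligand (chr9:116084293-116175360), was at 326 (PBS) and 369 (OVA) in ILC2, 308 and 277 in fibroblast and 261 and 254 in AT1 nuclei. The other types ranged from 115 to 234. ILC2 did not differ from fibroblasts in PBS (0.08 log2 units, -0.33 to 0.48) and exceeded them in OVA (0.41, 0.17 to 0.64), so the receptor was broadly shared. The peak over its start was also even, at 28.8 to 52.5 CPM of transposition counts over all types, while over the gene and 10 kb before it ILC2 exceeded the other types together by 0.82 log2 units (0.67 to 0.97) in PBS and 0.57 (0.45 to 0.69) in OVA.

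Tgfbr1, the type I kinase that passes the signal to SMADs (chr4:47353222-47414931), was lowest in ILC2 nuclei in both libraries, with 16 UMIs (74.6 CPM, 42.6 to 121) in PBS and 53 (95.4, 71.4 to 125) in OVA. Mast cell or basophil nuclei held 385 and 631, macrophages 351 and 327, and monocytes 321 and 209. ILC2 was below macrophages by 2.24 log2 units (1.45 to 3.11) in PBS and 1.78 (1.33 to 2.24) in OVA. It did not differ beyond counting error from pericytes, its neighbour in the order, at 86.6 and 134. In PBS it was also not separated from AT2 (-0.63 log2 units, -1.50 to 0.15) or AT1 (-0.63, -1.58 to 0.27). The start peak of Tgfbr1 showed the same rank for ILC2, with 74.6 and 79.1 CPM of transposition counts against 77.2 to 167 elsewhere, the PBS value being close to that of mast cells.

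Tgfbr3 encodes betaglycan, a co-receptor that presents ligand, TGF-β2 above all, to TGFBR2 (chr5:107106570-107289629). Myofibroblast or smooth muscle nuclei held 1564 and 1570 CPM, fibroblasts 620 and 721, and pericytes 292 and 302. These 3 types stood in this order in both libraries, each step larger than its interval. The first step was 1.33 log2 units (lower limit 1.12) in PBS and 1.12 (0.99) in OVA. Outside the stroma, ILC2 nuclei held 149 and 72.0 and macrophages 22.2 and 14.4. The start peak had 53.9 to 60.1 CPM of transposition counts in the stromal types, 24.2 and 30.5 in ILC2, and 3.95 to 8.07 in macrophages and monocytes.

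The latency proteins divided into Ltbp2 and Ltbp4, highest in stroma, and Ltbp1, which was also high in mast cells and present in ILC2. Ltbp2, an LTBP that binds fibrillin and does not carry the latent ligand (chr12:84783212-84876532), was at 533 and 476 in myofibroblast or smooth muscle, 303 and 319 in pericyte and 141 and 83.2 in fibroblast nuclei, each step larger than its interval in both libraries. ILC2 nuclei held 3 UMIs per library, and macrophages none in PBS, which allows 13.3 CPM, and 3 in OVA. Ltbp4, an LTBP needed for elastic fibre assembly (chr7:27305136-27337692), was at 201 and 166 in fibroblast, 173 and 222 in myofibroblast or smooth muscle and 130 and 147 in pericyte nuclei. AT1 nuclei held 74.5 and 60.9, and ILC2, macrophage and monocyte nuclei at most 10.8. Fibroblast, myofibroblast and pericyte levels of Ltbp4 did not differ beyond counting error in PBS, and in OVA the myofibroblast level exceeded the fibroblast level by 0.41 log2 units (lower limit 0.06).

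Chromatin at the Ltbp4 starts separated epithelium from stroma. The peak over the upstream start (chr7:27337289-27338196) had 40.3 and 35.3 CPM of transposition counts in AT2 and 32.3 and 29.8 in AT1, against 5.32 to 12.1 in the stromal types. The peak over the starts 3.95 kb downstream (chr7:27333276-27334119) had 24.6 to 39.2 in the stromal types and 6.11 to 22.1 in AT1 and AT2. The upstream peak was thus higher in both epithelial types and the downstream peak in the 3 stromal types in each library, though AT1 nuclei in OVA, at 22.1, lay near fibroblasts at 25.0 for the latter. Monocytes had at most 6.92 at either peak.

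Ltbp1 binds latent TGF-β to the extracellular matrix (chr17:75005568-75392512, 386.945 kb). In PBS it was at 427 CPM in mast cell or basophil, 381 in fibroblast, 366 in myofibroblast or smooth muscle, 93.2 in ILC2, 47.5 in AT2 and 32.5 in pericyte nuclei. In OVA it was at 604, 521, 380, 236, 39.8 and 129 in the same order. AT1, macrophage and monocyte nuclei held 9.61 to 13.6 in both libraries. ILC2 thus came directly after the 3 high types in each library and above AT2. In PBS it was not separated from pericytes, which held 3 UMIs (1.52 log2 units, -0.23 to 3.92). It lay below mast cells by 2.20 log2 units (1.23 to 3.17) in PBS and 1.36 (0.91 to 1.79) in OVA, and above macrophages by 2.80 (1.05 to 5.20) and 4.62 (3.46 to 6.09). Mast cell, fibroblast and myofibroblast levels did not differ beyond counting error in PBS.

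In ILC2 nuclei the Ltbp1 UMIs lay in 16 of 354 nuclei in PBS (4.52%, exact Clopper-Pearson 95% interval 2.61 to 7.24) against 68 of 515 in OVA (13.2%, interval 10.4 to 16.4). Nuclei were shallower in PBS, with a median of 488 nuclear-gene UMIs against 924, so nuclei were also thinned to 500 UMIs and the 183 PBS and 71 OVA nuclei below that depth were left out. After thinning, a UMI was found in 7 of 171 nuclei in PBS (4.09%, interval 1.66 to 8.25) against 43 of 444 in OVA (9.68%, interval 7.10 to 12.8), and these intervals overlapped. Macrophage nuclei, deeper at a median of 871 and 1445, gave 2 of 219 and 5 of 376 unthinned, and 1 of 179 and 0 of 371 after thinning (upper limits 3.07% and 0.989%). Mast cell nuclei gave 19.5% (8.82 to 34.9) and 27.5% (18.1 to 38.6) after thinning. The ILC2 shares thus lay between those of macrophages and mast cells.

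The Ltbp1 ratio of OVA over PBS in ILC2 nuclei was one of 2 upward member ratios of at least 2-fold with an interval that left out equality. Its UMIs numbered 20 in PBS and 131 in OVA, 93.2 (56.9 to 144) and 236 (197 to 280) CPM, a difference of 1.34 log2 units (0.65 to 2.10). The Poisson intervals did not overlap. Over all genes with at least 100 UMIs in ILC2 nuclei the median ratio was 0.18, and relative to it Ltbp1 was 1.15 higher. Counted over genes with at least 30 UMIs, 4.37% of 4140 genes were at least 2-fold higher in OVA ILC2 nuclei with an interval that left out equality, and 3.24% were 2-fold lower. Among members, 1 of the 6 with enough UMIs was higher and 2 were lower. The remaining 3 had intervals that took in equality: Tgfb1 differed by 0.16 log2 units (-0.36 to 0.71), Tgfbr1 by 0.36 (-0.47 to 1.26) and Tgfbr2 by 0.18 (-0.22 to 0.59).

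The summed RNA of mast cell markers was also higher in OVA in the ILC2 gate. All 10 mast cell or basophil markers together summed to 1608 CPM in PBS and 2473 in OVA ILC2 nuclei, most of it Kit at 1132 and 1425, and Fcer1a had no UMI. Of the 10, 7 had a higher level in OVA, among them Cpa3 at 112 and 214, the histidine decarboxylase gene Hdc at 191 and 533 and Gata2 at 18.6 and 63.0, and 2 had a lower one, Mcpt4 at 37.3 and 27.0 and Ms4a2 at 9.32 and 1.80. OVA ILC2 nuclei with an Ltbp1 UMI carried 5092 CPM of these markers against 1935 in those without, and Hdc at 1997 against 232, while their ILC2 marker sums were alike at 16797 and 16715. In PBS the 16 nuclei with an Ltbp1 UMI carried 2525 CPM of mast cell markers against 1543 in those without, and 1543 CPM of myofibroblast markers against 215. Hdc stood at 912 against 140 CPM, from 13 and 28 UMIs, and Slc18a2 at 210 against 54.9, from 3 and 11. The 16 nuclei held no UMI of Cpa3, Gata2, Mcpt4 or Ms4a2, but the 338 nuclei without Ltbp1 held only 24, 4, 8 and 2. Of the OVA ILC2-gated nuclei, 16 (3.11%) lay in the mast cell cluster. Among ILC2 nuclei with no UMI of a mast cell marker other than Kit, 11 and 48 Ltbp1 UMIs remained, 63.0 and 138 CPM, 1.13 log2 units apart. In nuclei whose gate and cluster were both ILC2 the values were 106 and 205, 0.94 log2 units apart, and with clusters in place of gates 104 and 202, 0.96 apart, both under 2-fold. The level in OVA was thus higher in each of these selections, by less than 2-fold in the last pair. Without nuclei holding a fibroblast, myofibroblast or pericyte marker, the values were 84.7 and 196. Mitochondrial RNA made up 41.6% of UMIs in PBS and 30.4% in OVA ILC2 nuclei, and its part was not tested beyond a stricter limit. Only 12 and 82 ILC2 nuclei had at most 20% mitochondrial UMIs, and their 4 and 26 Ltbp1 UMIs gave the opposite direction, 361 and 228 CPM.

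Chromatin over Ltbp1 differed among types peak by peak. Over the gene and 10 kb before it, 30 peaks were shared by both libraries. ILC2 nuclei had 180 transposition counts in PBS and 387 in OVA, 71.4 and 96.6 CPM, against 184 and 196 in fibroblasts and 205 and 180 in mast cells. Types with little Ltbp1 RNA were not lower in PBS: macrophages had 104 and 125, monocytes 113 and 139, AT2 97.3 and 92.2 and AT1 81.2 and 77.5. Myofibroblast or smooth muscle nuclei had 143 and 172 and pericytes 74.2 and 70.6. The PBS value of ILC2 was the lowest of the 9 types. Relative to the other types together, ILC2 was lower by 0.83 log2 units (0.61 to 1.06) in PBS and 0.59 (0.43 to 0.74) in OVA.

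Of the starts whose sequences are given above, neither library had a peak over the first (75005529), and the second (75178781), 173 kb downstream, lay in a stromal peak (chr17:75178045-75178955). That peak had 142 and 242 counts in fibroblasts, 36.1 and 34.6 CPM, 15.5 and 30.9 in myofibroblast or smooth muscle nuclei and 17.5 and 20.9 in pericytes. In ILC2 nuclei it had 3 and 0 counts, 1.19 CPM in PBS and at most 0.749 in OVA. ILC2 nuclei carried a peak 232 kb from the first start (chr17:75237214-75238161) with 46 and 75 counts, 18.2 and 18.7 CPM. Mast cells had 16 and 7 counts there, 18.2 and 5.78 CPM, and no other type had more than 4 counts. This peak was therefore shared by ILC2 and mast cells, and its ILC2 level was alike in PBS and OVA.

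A peak shared by the leukocyte types lay 194 kb from the first start (chr17:75199331-75200260), with 43 counts (17.1 CPM, 12.3 to 23.0) in PBS and 127 (31.7, 26.4 to 37.7) in OVA ILC2 nuclei. Mast cells had 45.4 and 41.3 CPM there, macrophages 19.6 and 27.4 and monocytes 27.9 and 23.1, AT1 5.24 and 17.0, and the stromal types and AT2 at most 8.13. This peak was higher in OVA than in PBS ILC2 nuclei. The printed intervals did not overlap, but they are too narrow because both ends of a fragment are counted, so they do not settle whether the levels differ beyond counting error. Macrophages and monocytes, whose chromatin also carried the peak, held almost no Ltbp1 RNA. A peak near the gene end (chr17:75391426-75392386) had 14 and 42 counts in ILC2, 5.55 and 10.5 CPM, with overlapping intervals. Over the gene as a whole, ILC2 accessibility was 0.44 log2 units (0.18 to 0.70) higher in OVA. This was not particular to ILC2. Macrophages were higher by 0.26 (0.02 to 0.51), myofibroblast or smooth muscle nuclei by 0.27 (0.02 to 0.52) and monocytes by 0.30 (-0.02 to 0.63). Fibroblasts differed by 0.09, and mast cells, AT2, AT1 and pericytes were lower in OVA, all with intervals that took in equality.

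**Figure D2:**
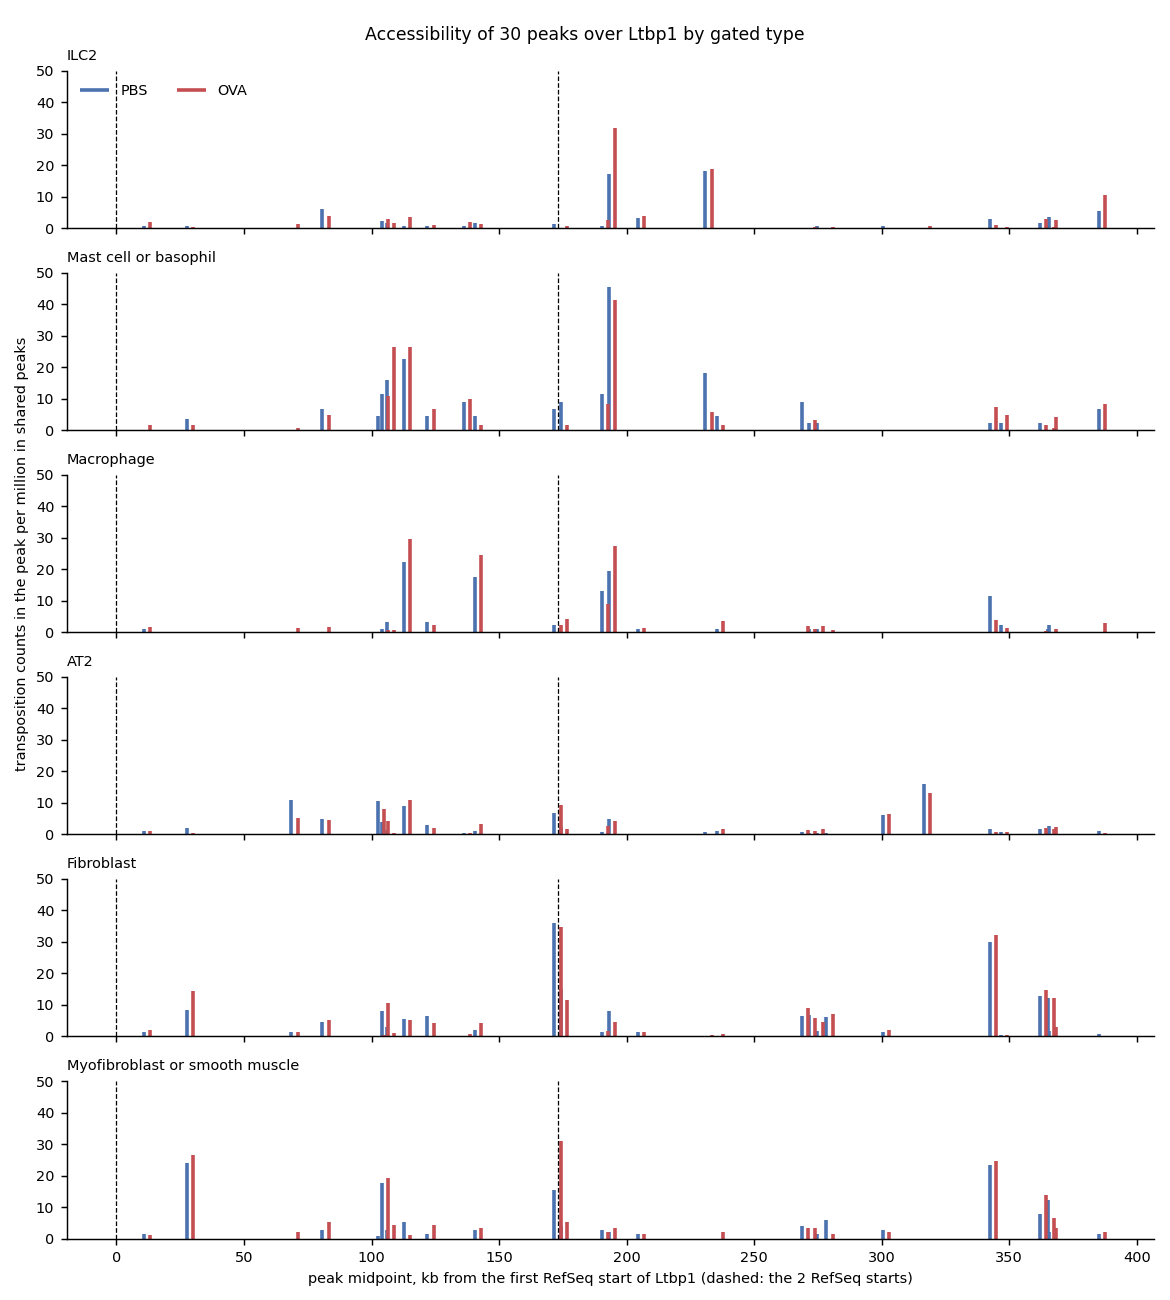
Transposition counts per 1000000 counts in peaks, in 30 shared peaks over Ltbp1 (y axis, linear) by distance of the peak's midpoint from the first RefSeq start in kb (x axis), in 6 types, with PBS (blue) and OVA (red) bars drawn beside each other for the same peak. Dashed lines mark the starts, of which the second lies at 173 kb in a fibroblast and myofibroblast peak, while the bars at 232 kb stand in ILC2 and mast cell nuclei and those at 194 kb also in macrophages, at 19.6 and 27.4 CPM.

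Tgfbi, a secreted adhesion protein of the matrix induced by TGF-β (chr13:56609523-56639562), was at 1961 and 1968 CPM in myofibroblast or smooth muscle nuclei. Monocytes held 457 and 362, macrophages 400 and 439, and fibroblasts 232 and 147. The first step in this order was 2.10 log2 units (lower limit 1.66) in PBS and 2.17 (1.96) in OVA, and monocytes and macrophages did not differ beyond counting error. Chromatin gave a different order: over the gene and 10 kb before it, macrophages had 159 and 161 CPM of transposition counts and monocytes 163 and 172, against 82.9 and 99.5 in myofibroblast or smooth muscle nuclei and 37.3 and 27.0 in ILC2. The start peak of Tgfbi ranged from 5.40 to 21.6, and in OVA it was lower in ILC2 (7.74, 5.26 to 10.98) than in macrophages (21.6, 17.2 to 26.8) or monocytes (20.2, 14.1 to 28.1).

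ILC2 nuclei held 37 Tgfbi UMIs in PBS, 172 CPM (121 to 238), and 21 in OVA, 37.8 (23.4 to 57.8), lower in OVA by 2.19 log2 units (1.38 to 3.04). Tgfbr3 moved the same way, with 32 and 40 UMIs, 149 and 72.0 CPM, lower by 1.05 log2 units (0.33 to 1.76). Stromal RNA in the ILC2 gate was lower in OVA as well: the 10 myofibroblast or smooth muscle markers summed to 303 and 103 CPM, the 10 fibroblast markers to 531 and 408, and elastin (Eln) stood at 433 and 194. The Tgfbi UMIs came from 20 PBS and 11 OVA nuclei, whose ILC2 markers summed to 8093 and 8499 CPM against 15375 and 17074 in nuclei without, and whose myofibroblast markers summed to 1664 and 671 against 146 and 78.7. Macrophage markers summed to 225 and 939 in these nuclei against 255 and 311, and the part of macrophage RNA was not tested. Among ILC2 nuclei with no stromal marker, 19 and 6 Tgfbi UMIs remained, 134 and 18.6 CPM, and 5 and 15 Tgfbr3 UMIs, 35.3 and 46.6 CPM. Without the nuclei that carried stromal markers, the point value for Tgfbr3 was 0.40 log2 units upward, and that for Tgfbi stayed lower in OVA. Both genes then held fewer UMIs than the minimum set for reading a ratio, so neither value is read as a difference. Accessibility over Tgfbi in ILC2 nuclei was 0.47 log2 units lower in OVA (0.05 to 0.88), and over Tgfbr3 0.18 higher (-0.06 to 0.42).

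Across the 9 types, 58 of 90 pairs of a member and a type had at least 30 UMIs over both libraries. Of these, 2 were at least 2-fold higher in OVA with an interval that left out equality and 5 were lower, with a median of -0.02 log2 units. Over all genes, 3.23% of 38835 such pairs were higher and 2.45% lower. Besides Ltbp1 in ILC2, the higher pair was Ltbp1 in pericytes, with 3 and 30 UMIs, 32.5 and 129 CPM, from 3 and 11 nuclei (1.99 log2 units, 0.31 to 4.35). It rested on a PBS count of 3. Where gate and cluster were both pericyte 1 and 11 UMIs were left, 14.6 and 58.4 CPM, and with doublet calls kept there were 8 and 36 UMIs and a difference of 0.89 log2 units, under 2-fold. Besides Tgfbi and Tgfbr3 in ILC2, the lower pairs were Tgfbi in AT2 (56 and 31 UMIs, -1.15), Ltbp2 in AT2 (30 and 17 UMIs, -1.11) and Tgfb3 in fibroblasts (31 and 38 UMIs, -1.24). The AT2 value of Ltbp2 turned to 0.10 as a mean over nuclei and 0.0040 with clusters in place of gates. After thinning to 500 UMIs it was 0.64, from only part of its 30 and 17 UMIs. None of the 5 lower pairs was counted as lower after thinning. Thinning takes UMIs away and a pair is counted only from 30, so this cannot tell a changed ratio from too few UMIs. In the AT2 gate the myofibroblast marker sum stood at 195 and 60.8 CPM, Eln at 453 and 114, and the fibroblast marker sum at 466 and 407, including Col1a1 at 91.1 and 32.5, and the part of stromal RNA in the AT2 ratios was not tested.

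In myofibroblast or smooth muscle nuclei Tgfbi differed by 0.0052 log2 units (-0.17 to 0.18) and Tgfbr3 by 0.0048 (-0.19 to 0.21), and Tgfb2 in AT1 by 0.05 (-0.31 to 0.42). A further 8 pairs differed by less than 2-fold with an interval that left out equality, 5 of them in fibroblasts and 3 in AT2. In fibroblasts Tgfb1 was higher in OVA by 0.96 (0.13 to 1.89), Ltbp1 by 0.45 (0.25 to 0.65) and Tgfbr3 by 0.22 (0.06 to 0.38), while the differences of Ltbp2 and Tgfbi were -0.76 (-1.13 to -0.39) and -0.66 (-0.94 to -0.37). In AT2 Tgfbr1 and Tgfbr2 were higher by 0.57 and 0.49, and the difference of Tgfb2 was -0.40. Ratios of types whose nuclei lay in different clusters, fibroblast, macrophage, monocyte and AT1, compare those clusters as well as the libraries.

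**Figure D3:**
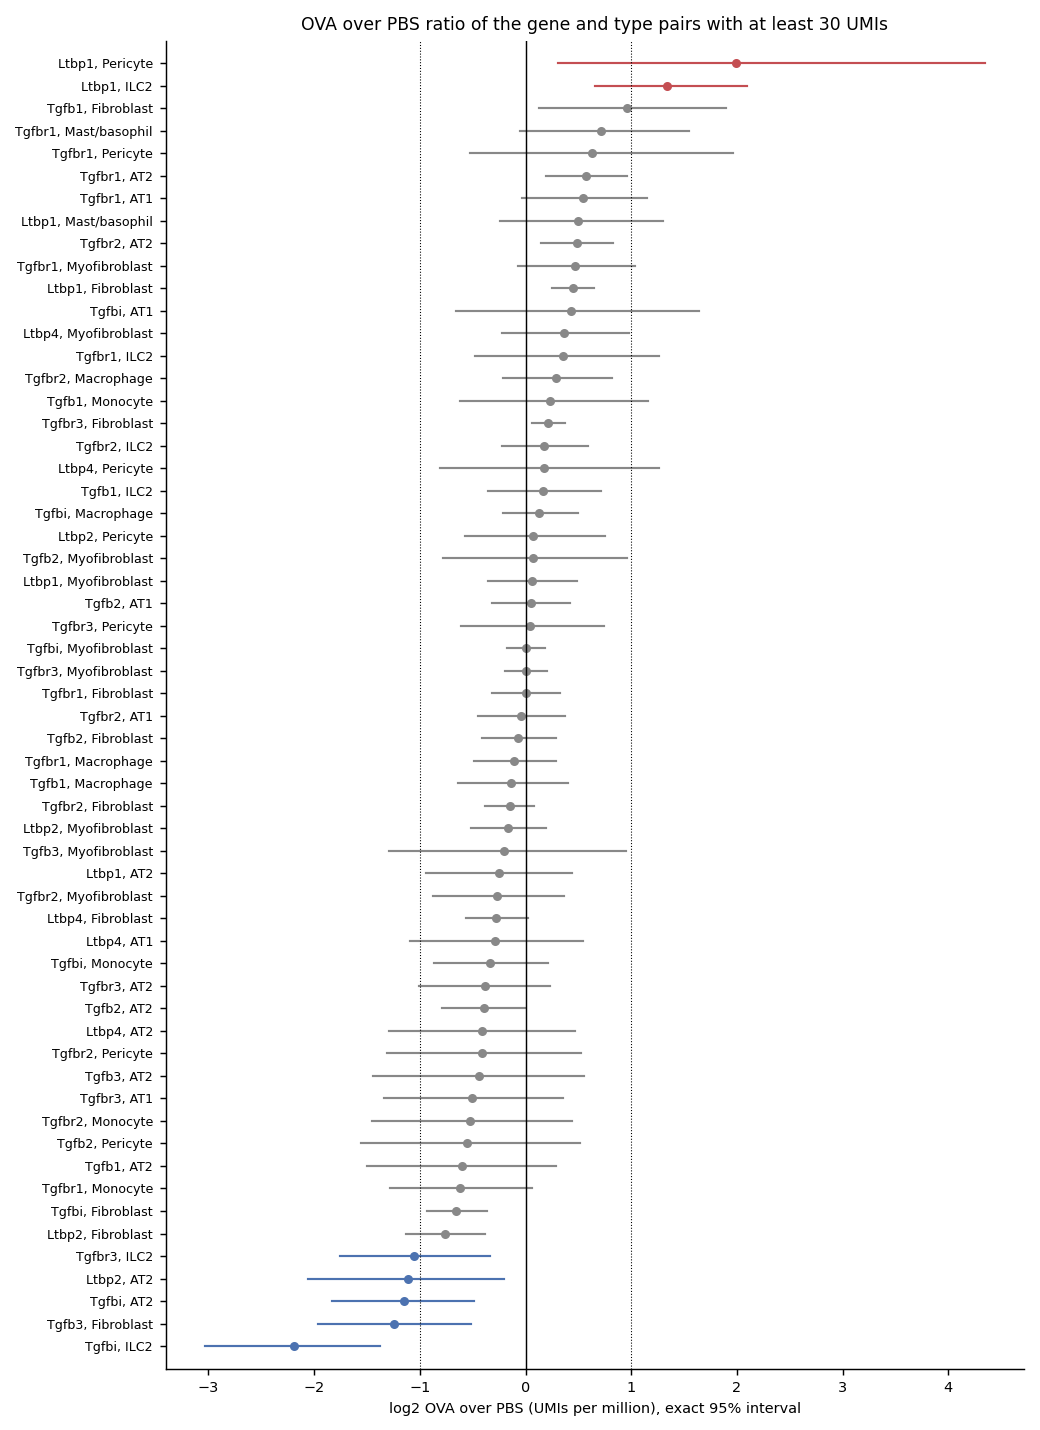
Log2 ratio of OVA over PBS CPM (x axis) for the 58 pairs of gene and gated type with at least 30 UMIs (y axis, sorted), with the exact 95% interval as a line, dotted lines at 2-fold and red or blue for the 2 higher and 5 lower pairs past 2-fold with an interval leaving out 0. Most pairs lie near 0, with Ltbp1 in pericytes and ILC2 at the top and Tgfbi in ILC2 at the bottom.

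The order of types was compared between libraries for genes with at least 30 UMIs in their highest type in each, which 7 of 10 members met (Tgfb3, Tgfbr1 and Ltbp1 had fewer in PBS). The highest type was the same in 5 of the 7, against 75.4% of 3124 genes. In 3 of the 7, Tgfb2, Tgfbr3 and Tgfbi, it was also at least 2-fold above the next in both libraries, against 17.5% of genes. The highest type of Tgfb1 was the macrophage in PBS and ILC2 in OVA, and that of Ltbp4 the fibroblast and the myofibroblast or smooth muscle type.

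Other genes of TGF-β biology, 46 from a list by role, were described in the same way, and 25 had enough UMIs, 20 of them with the same highest type (75.4% over all genes) and 8 also past 2-fold in both libraries (17.5% over all genes). Of the latency and storage genes, 6 of 8 could be compared and all 6 kept their type, 1 past 2-fold. That gene was Fbln5 (fibulin-5, an elastic fibre protein), at 298 and 321 CPM in AT1 nuclei. Elastin (Eln) was highest in myofibroblast or smooth muscle nuclei, the fibrillin gene Fbn2 in AT1 and the elastic fibre gene Emilin1 in fibroblasts, none of them 2-fold above the next type. Ltbp3, the remaining LTBP, was at 371 and 285 in myofibroblast or smooth muscle nuclei, its highest type. Ltbp3 and the anchors of latent TGF-β on leukocytes fell outside the naming rule and were chosen after their values were seen. Lrrc32 (GARP) had 1 and 2 UMIs in ILC2, its highest type, and Nrros had 282 and 221 CPM in monocytes.

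Of the 7 activation genes, 4 could be compared, 3 kept their type and 2 were past 2-fold, both of them integrin chains. Itgav, the αV chain, was highest in ILC2 nuclei at 848 and 1585 CPM, 1.01 (lower limit 0.50) and 1.94 (1.70) log2 units above the next type. Itgb6, the β6 chain that pairs with αV on epithelium to free TGF-β, was highest in AT1 at 481 and 756 and had no UMI in PBS and 2 in OVA ILC2 nuclei. Thbs1 (thrombospondin-1) was highest in fibroblasts and Itgb1 in pericytes in PBS and myofibroblasts in OVA. Furin, the protease that cleaves the propeptide, was outside the rule and chosen after its values were seen. It stood at 569 and 959 in ILC2 and at 620 and 2150 in mast cell or basophil nuclei, the latter from 29 and 242 UMIs, 1.79 log2 units higher in OVA (1.24 to 2.40).

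Among SMADs and inhibitors, 7 of 12 could be compared, 3 kept their type and 1 was past 2-fold. That 1 was Pmepa1, a TGF-β target that restrains SMAD signalling, at 610 and 700 in myofibroblast or smooth muscle nuclei. Smad3, which carries the signal to DNA, was highest in ILC2 at 322 and 315, 0.69 (lower limit 0.16) and 0.90 (0.53) log2 units above the next type, and Smurf2 was highest in fibroblasts. ILC2 nuclei therefore ranked highest for Tgfbr2, Smad3 and Itgav and lowest for Tgfbr1. In PBS, however, they were not separated beyond counting error from fibroblasts, AT1 and mast cells for Tgfbr2, nor from pericytes, AT2 and AT1 for Tgfbr1. The other receptors gave 1 comparable gene of 7, Bmpr1a, highest in AT1.

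Matrix readouts kept their type in 5 of 5 comparable genes of 8, with 4 past 2-fold: Postn (periostin) at 1537 and 1345 in pericytes, Tagln at 467 and 360 in myofibroblast or smooth muscle nuclei, and Fn1 (fibronectin) at 5561 and 7819 and Col1a1 at 2091 and 1458 in fibroblasts. Tagln and Col1a1 are gate markers of those types, so their place there was set by the gate. Of the ligand-binding matrix genes Dcn, itself a fibroblast marker, was highest in fibroblasts and Bgn in myofibroblast or smooth muscle nuclei, 2 of 4 comparable and neither past 2-fold. Between libraries, 232 of 414 pairs of these 46 genes and a type had enough UMIs, with 7 at least 2-fold higher in OVA, 14 lower and a median of 0.02 log2 units, against 3.23% and 2.45% of pairs over all genes. In ILC2 nuclei none of 23 was higher and 4 were lower, against 4.37% and 3.24% of all genes, the matrix genes Fbn1, Eln and Col1a2 and the receptor Bmpr1a. Fbn1 and Col1a2, outside the naming rule, stood there at 83.9 and 21.6 and at 191 and 91.8 CPM, beside the lower stromal marker sums given above. In AT2 nuclei Thbs1 was higher in OVA at 290 and 677 CPM and Itgb6 at 112 and 238, while 5 matrix genes were lower, among them Postn at 35.9 and 11.5. Thbs1 was also higher in monocytes (1195 and 2455) and in myofibroblast or smooth muscle nuclei (1463 and 2958), and lower in mast cells (1196 and 569). Fn1 was higher in AT1 at 81.3 and 247 and Postn in myofibroblast or smooth muscle nuclei at 50.8 and 126. The remaining lower pairs were Smurf2 in monocytes, Fbn2 in fibroblasts, and Eln and Col1a2 in mast cells. In the mast cell gate the fibroblast marker sum stood at 620 and 187 CPM, with Col1a1 at 385 and 53.3. The myofibroblast marker sum there stood at 192 and 97.7, and the part of stromal RNA in the mast cell ratios was not tested.

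**Figure D4:**
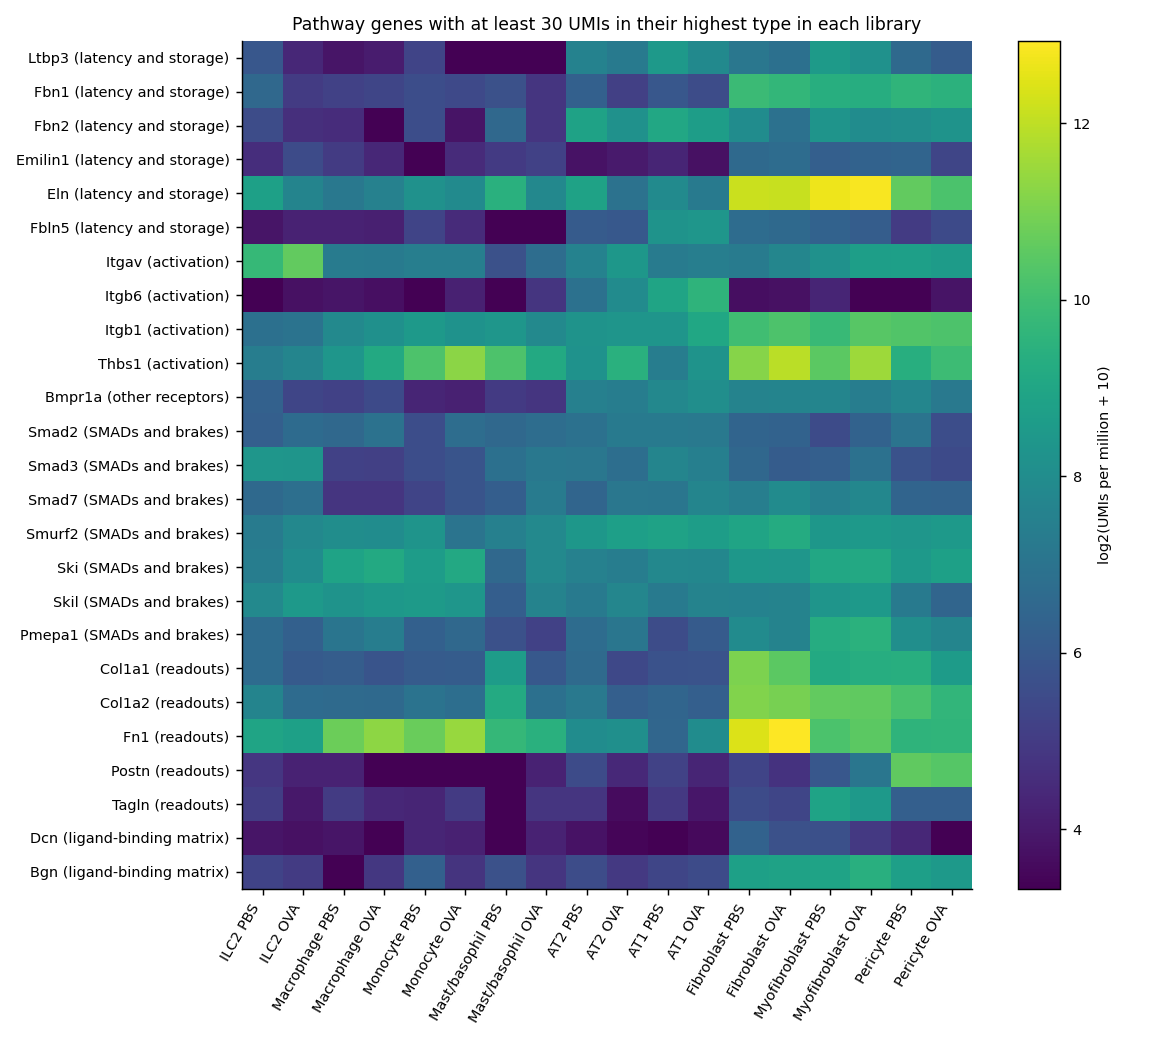
Log2(CPM + 10) (colour) of the 25 pathway genes with at least 30 UMIs in their highest type in each library (rows, with their role) in 9 types in PBS and OVA (columns). Itgav and Smad3 are brightest in ILC2, Itgb6 and Fbln5 in AT1, and collagen, elastin and fibronectin genes in the stromal columns.

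Likeness of pattern was measured as Pearson's r of log2(CPM + 10) over 18 points, 9 types in 2 libraries, among 5108 genes with at least 300 UMIs. The points share libraries and depth, and r is a description. Nearest to Ltbp1 were Nav3 (0.95), Olfr1033 (0.91) and Fgfr1 (0.90), and nearest to Tgfbr3 were Fbln1 (0.97), Prdm6 (0.96) and Eln (0.96). Tgfb1 was nearest to Slc9a9 (0.95), Dock10 (0.92) and St8sia4 (0.91), and Tgfb2 to Shroom3, Stard13 and Tead1 (0.95 each). Ltbp2 was nearest to Ddr2 (0.96), Acta2 (0.95, a gate marker) and Dock6 (0.95), Ltbp4 to Dzip3 (0.97), Mpzl1 (0.96) and Grb10 (0.96), and Tgfbi to Egfem1 (0.95), Spire1 (0.85) and Lhfpl2 (0.83). Tgfb3 was nearest to Dennd5b (0.92), Pde5a (0.90) and Tuba1a (0.89) and Tgfbr1 to Ext1 (0.89), Uap1 (0.88) and Ier3 (0.86). No gene came closer to Tgfbr2 than Amph (0.66), followed by Yes1 and Zfp827 (0.64 each). Among the members the lowest r with Tgfb1 was that of Tgfb2 at -0.86.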

How the data were processed

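Nuclei of 2 libraries (PBS and OVA, 1 each) were analysed. The authors made the deposited counts with Cell Ranger ARC 2.0.1 on mm10, per the submitters' processing notes, and the files hold raw UMI counts per gene and transposition counts per peak for each barcode, without normalization. The annotation release is not given in the sources used here. Peaks were called in each library separately, and 101838 regions overlapped between them.

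Barcodes were retained with 200 genes or more and no more than 60% of UMIs from mitochondrial genes, which left 4572 of 8019 (PBS) and 5246 of 5960 (OVA). Calls of a simulated doublet score (293 and 250) were removed. A nucleus was assigned to a type with at least 2 of its markers and at least 1 more than any other of 23 types, and Sftpc counted only from 3 UMIs because 42.9% of nuclei held it. This left 1726 and 1599 nuclei in no type. The gate rule was set after clusters and marker counts were seen. Leiden clusters (resolution 1, 30 components of 3000 genes) served as a check.

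UMIs were summed over each type and divided by its nuclear-gene UMIs (CPM, per 1000000), with exact 95% Poisson intervals. Ratios have exact conditional binomial intervals and shares Clopper-Pearson intervals. All cover counting error only, and single libraries allowed no test of the exposure. A gene at 0 was given a limit of 3 counts. OVA over PBS ratios were read where both libraries together held 30 UMIs or more of the gene. The ratio code recovered known folds on simulated data.

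Named genes were the 10 members, up to 4 genes per role of the pathway list with the highest ratio over the next type, the 3 genes most like each member, and markers. The members and lists were chosen with earlier results of these data known. Alternatives changed the denominator, doublet removal, gates, mitochondrial limit, depth and UMI minimum. Python 3.11.15, NumPy 2.4.6, SciPy 1.17.1, pandas 2.3.3, scikit-learn 1.9.0 and leidenalg 0.10.2 were used, and RefSeq sequences on GRCm38.p6, the mm10 assembly.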

Additional observations from a re-analysis of the deposited data

Results flagged for a closer look

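Chromatin regions called in the OVA library alone entered no main comparison, only an alternative that took all peaks of each library. Of them, 2 over Ltbp1 held signal in fibroblast nuclei above the limit that a count of 0 allows. The region chr17:75094449-75095519 had 49 transposition counts in OVA fibroblasts, 7.01 CPM of the counts in shared peaks, and chr17:75378245-75379104 had 25, 3.58 CPM. PBS values are not known for either, since counts were made over the regions of each library.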

How the results depend on the processing

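No paired analysis was possible because PBS and OVA are single libraries. Leaving out a replicate was impossible for the same reason. Of the values that answer a comparison, recomputed under each setting chosen at the start, 55 stayed within their counting interval or, for counts, within 1.5 times, 17 moved further and 1 reversed. The Ltbp1 difference of OVA over PBS in ILC2 nuclei, 1.34 log2 units, turned to -0.66 at a limit of 20% mitochondrial UMIs, where 12 and 82 nuclei were left. Ltbp1 in ILC2 relative to the highest other type became -0.18 in PBS at that limit, and in OVA -1.88 with Leiden clusters and -1.86 where gate and cluster agreed (chosen after seeing the data). The count of member pairs at least 2-fold lower, 5, became 2 with all gene UMIs as the denominator, with Leiden clusters and with a joint filter on both assays, 1 at the mitochondrial limit, 0 after thinning to 500 UMIs or with a minimum of 100 UMIs, and 1 where gate and cluster agreed. The count of higher pairs, 2, became 0 with Leiden clusters and 1 at the mitochondrial limit, with a minimum of 100 UMIs and where gate and cluster agreed. None of the 5 lower pairs, nor Ltbp1 in pericytes, held 100 UMIs over both libraries, so that minimum removed them in advance. The share of OVA ILC2 nuclei with an Ltbp1 UMI, 9.68% at 500 UMIs, was 13.7% at 1000 and 13.2% unthinned. Ltbp1 accessibility in ILC2 relative to the other types became -0.55 in PBS with doublet calls kept, -0.76 in OVA with Leiden clusters, and -4.02 and -4.97 within 2 kb of a start. Ltbp2 in AT2, lower in OVA, reversed to 0.10 with the mean over single nuclei, 0.0040 with Leiden clusters and 0.64 after thinning. The thinned value rested on only part of its 30 PBS and 17 OVA UMIs. The point value of Tgfbr3 in ILC2 became 0.40 without nuclei holding a stromal marker (chosen after seeing the data). It rested on fewer UMIs than the minimum for reading a ratio, so it does not settle a direction. Apart from the effect of the UMI minimum, the cause of these changes was not tested. The highest type of Tgfb2, Tgfbr3, Ltbp2 and Tgfbi stayed the same in each library under all 10 alternatives, while that of Tgfb1 in PBS did so under 4. Depth limited Tgfb3, Ltbp2 and Ltbp4 in leukocytes, where counts were mostly below 10.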

Other observations

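Types with fewer than 50 nuclei in a library gave values with no comparison. In 20 PBS and 35 OVA endothelial nuclei Tgfbr3 stood at 278 (183 to 404) and 356 (269 to 462) CPM, Tgfb1 at 165 and 184, and Ltbp1 at 154 and 102. In 29 and 22 ciliated nuclei Ltbp1 had 15 and 24 UMIs, 218 and 91.0 CPM. In 20 and 48 neutrophil nuclei Tgfbi had 13 and 12 UMIs, 1147 and 287 CPM.

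The nuclei assigned to no type held the members as well. Tgfb1 stood at 121 in both libraries, Tgfbr1 at 228 and 229, Tgfbr2 at 220 and 203, Tgfbr3 at 392 and 289, Ltbp1 at 118 and 152 and Tgfbi at 434 and 429 CPM. A region over Tgfbi called in the OVA library alone (chr13:56621820-56622601) had 36 transposition counts in ILC2 nuclei, 8.99 CPM (6.29 to 12.4), beside 6.97 (3.01 to 13.7) in pericytes, 4.79 (2.19 to 9.09) in myofibroblast or smooth muscle nuclei and 0.79 to 1.84 in the other types.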
